A study of Bos taurus with 24 samples.

Results

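The Krüppel-like factors (KLFs) are DNA-binding proteins that share a zinc finger domain at the C-terminal end and bind GC-rich and CACCC-type sites in promoters. Their N-terminal regions differ, and with them the partners: KLF3 recruits the CtBP co-repressors, KLF9, KLF10 and KLF13 bind the SIN3 co-repressors, and KLF2, KLF4, KLF5, KLF6 and KLF7 carry activation domains. Several KLF genes are immediate early or glucocorticoid-responsive genes, and in endothelial cells and macrophages KLF2 and KLF4 are known to restrain or shape NF-kB-driven inflammation.

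Expression of 10 KLF genes was described here in RNA-Seq data of bovine dermal fibroblasts, the collagen-producing connective tissue cells of the skin. The genes were taken by symbol as KLF2, KLF3, KLF4, KLF5, KLF6, KLF7, KLF9, KLF10, KLF13 and KLF15, each of which stood on 1 row, out of 17 rows named KLF and 27371 gene symbols in all. The cells came from shoulder skin of 4 Angus (beef) and 4 Holstein (dairy) heifers of like age, all Bos taurus, and 1 culture per animal was sampled before lipopolysaccharide (LPS, a Gram-negative cell wall component, used at 100 ng/ml) and again later, at hours 2 and 8, which gave 24 samples in 6 groups of 4. Lysates of 2 wells were pooled for each sample. The breeds also differed in how calves were reared, and no untreated culture at 2 h or 8 h was analysed here, so that breed and rearing, or LPS and time after its addition, cannot be told apart.

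Samples held 51014538 to 104406293 counts in total, and levels are given as CPM, that is counts scaled to a library of 1000000, after scaling by the trimmed mean of M-values (TMM), each as the mean ± SD of 4 animals. One CPM stood for 51.0 to 104.4 counts, and 3 counts, taken as the smallest level that could be seen, for 0.0287 to 0.0588 CPM. The LPS label was met by NFKBIA, IL6, IL8 and CCL2, which rose at hour 2 by 4.60, 6.46, 8.36 and 3.89 on the log2 scale with both breeds together. All 9 fibroblast markers exceeded 1 CPM in all 24 libraries. The 5 endothelial markers, of interest because KLF2 and KLF4 are abundant in endothelium, summed to 0.959 to 3.50 CPM, and the 5 leukocyte markers to 0.512 to 1.43 CPM. Among the endothelial markers VWF was the highest, with a median of 1.385 CPM and at least 1 CPM in 16 libraries. TIE1 was the lowest, at 0 in 21 libraries. The 5 keratinocyte markers reached 11.1 to 13.3 CPM in Holstein animal 1 and at most 0.914 CPM in every other animal. That animal had the highest KLF4 level of the Holstein animals at each hour and not the highest KLF5 level at any, and the part of keratinocytes in these levels was not tested. In 4 libraries each count of COL1A1 stood for fewer covered bases (66.2 to 67.1, and 111.8 to 119.0 in the remaining libraries), for a reason not given in the sources used here. These were Angus animal 4 and Holstein animals 2 and 4 at 0 h and Angus animal 3 at 2 h, and fits without these 4 libraries are named where they change a call.

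With both breeds combined, KLF2 and KLF6 fell and KLF5 rose at hour 2 post-LPS, whereas KLF10, KLF3 and KLF4 responded differently in Holstein and Angus cells. KLF10 rose 2.09-fold in Holstein cells at hour 2 and did not pass the test in Angus cells, where its level was lower in 3 of 4 animals. KLF3 and KLF4 fell in Angus cells at hour 2, 1.73-fold and 1.60-fold, and did not pass the test in Holstein cells, where KLF3 was lower in all 4 animals. For KLF3, KLF4 and KLF10 the difference between the breeds' responses was itself past the false discovery rate (FDR) of 0.05. The FDR was adjusted over all rows tested. The KLF4 difference was lost in most alternatives, although the fits that paired the samples of each animal called it. Since the samples are bulk cultures, fewer cells with a transcript and less of it per cell cannot be told apart for any gene.

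**Figure D1:**
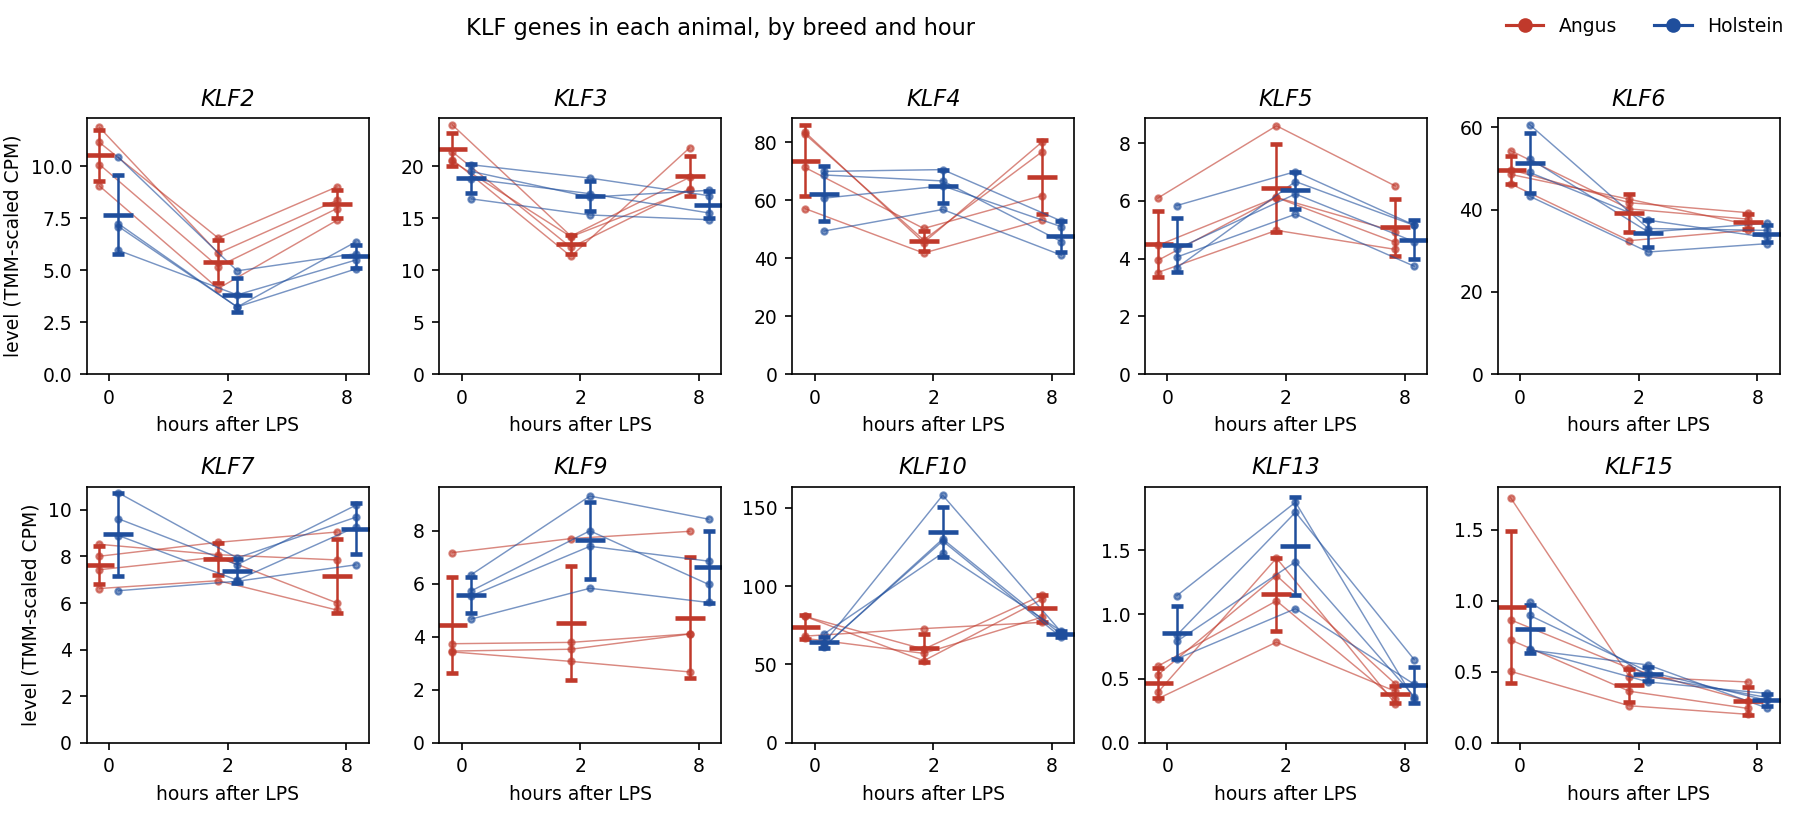
Level of each KLF gene (TMM-scaled CPM, linear axes that start at 0) at 0, 2 and 8 h after LPS. Each thin line joins the samples of 1 animal (red Angus, blue Holstein), and bars show the mean ± SD of 4 animals. KLF10 in the 4 Holstein samples at 2 h lay between 121.0 and 157.9 CPM, above every other sample, and KLF3 in the 4 Angus samples at 2 h lay between 11.3 and 13.3 CPM, below every other sample.

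KLF10 (TGFB-inducible early gene) is an immediate early gene whose protein represses transcription through SIN3. Its row covered chromosome 14, 63954121 to 63957276, on the plus strand of build UMD v3.1, and held 3153 to 11343 counts per library. In Holstein cells its level was 63.7, 61.6, 61.3 and 69.5 CPM at 0 h in animals 1 to 4 and 157.9, 128.7, 130.0 and 121.0 CPM at 2 h. At 8 h the same cultures held 70.5, 67.2, 69.0 and 71.1 CPM. Thus all 4 Holstein animals stood far higher at hour 2 than at either other hour, and the means were 64.0 ± 3.79, 134.4 ± 16.2 and 69.4 ± 1.76 CPM (n = 4). In Angus cells the level was 80.6, 68.0, 66.6 and 80.6 CPM at 0 h and 59.7, 72.8, 57.1 and 52.3 CPM at 2 h. At 8 h it was 94.2, 76.8, 80.2 and 91.7 CPM. Angus animals 1, 3 and 4 were thus lower at hour 2 than at 0 h and animal 2 was slightly higher, with group means of 74.0 ± 7.69, 60.5 ± 8.79 and 85.7 ± 8.47 CPM.

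The Holstein response of KLF10 at hour 2 was a log2 fold change of 1.06 (SE 0.106, FDR = 4.67e-21), and it was called in 12 of 12 alternatives. The Angus value was -0.29 (SE 0.144, FDR = 0.194), and with the animal as a block it fell by 0.30 (FDR = 0.035), a call that the F test with the block did not make (FDR = 0.065). The interaction of breed and LPS at hour 2 was 1.37 (SE 0.171, FDR = 1.49e-11), which passed in 16 of 16 alternatives, from 1.246 to 1.497. With both breeds together KLF10 therefore averaged opposite values, 0.50 (SE 0.218, FDR = 0.0925), and reached the threshold only without Angus animal 1 (0.61, FDR = 0.0411) or without Angus animal 4 (0.62, FDR = 0.0202). At hour 8 KLF10 was higher than at 0 h in all 8 animals, by 0.034 to 0.268 on the log2 scale, where 13.8% of rows were higher in all 8. That small change did not pass the test (0.16, SE 0.0941, FDR = 0.28), and with the animal as a block KLF10 rose by 0.16 (FDR = 0.000823).

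KLF3 (basic Krüppel-like factor, on chromosome 6, 59593796 to 59611369, plus strand) is a repressor that acts through CtBP. Angus levels were 23.98, 21.4, 20.5 and 20.6 CPM at 0 h and 13.3, 12.2, 13.2 and 11.3 CPM at 2 h. At 8 h they were 18.9, 17.8, 17.7 and 21.8 CPM. Every Angus culture was lower at hour 2 than at 0 h and higher again at hour 8. Holstein levels were 20.1, 16.9, 18.8 and 19.5 CPM at 0 h, 18.9, 15.3, 17.4 and 17.0 CPM at 2 h and 17.2, 14.9, 15.5 and 17.7 CPM at 8 h, so that each Holstein culture was slightly lower at hour 2 than at 0 h. Between the breeds the levels did not overlap at any hour. Holstein was the lower breed at 0 h and 8 h and the higher one at 2 h. At 8 h the gap was narrow, the highest Holstein and the lowest Angus level both rounding to 17.7 CPM. The breed difference was called at 2 h (0.45, FDR = 0.00502) but not at 0 h (-0.20, FDR = 0.255) or 8 h (-0.22, FDR = 0.213). Such separation was also seen in 17.3% of all rows at 0 h and 20.4% at 8 h. KLF3 fell by 0.79 in Angus cells at hour 2 (SE 0.126, FDR = 2.35e-08), against -0.14 in Holstein cells (SE 0.109, FDR = 0.486). With the animal as a block the Holstein value was -0.14 (FDR = 0.0614), and it was called there by the F test with the block (FDR = 0.0398). The interaction was 0.67 (SE 0.149, FDR = 0.00399) and was called in 13 of 16 alternatives. It was not called without the 4 libraries with fewer covered bases (0.65, FDR = 0.0815), without Angus animal 2 (0.65, FDR = 0.0506) or without Holstein animal 3 (0.64, FDR = 0.079).

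KLF4, a regulator of epithelial differentiation and of macrophage and endothelial activation, lay on chromosome 8, 98843683 to 98847740, on the minus strand. Angus levels were 83.4, 57.1, 71.2 and 82.7 CPM at 0 h and 45.3, 41.7, 50.2 and 46.3 CPM at 2 h. At 8 h they were 80.1, 53.2, 61.5 and 76.7 CPM. All 4 Angus cultures were lowest at hour 2, and at hour 8 differed from their own 0 h level by -0.21 to -0.058 on the log2 scale. Holstein levels were 69.9, 49.3, 60.7 and 68.7 CPM at 0 h and 70.5, 56.8, 64.9 and 66.6 CPM at 2 h. At 8 h they were 52.8, 41.0, 50.8 and 45.7 CPM, the lowest of the 3 hours in each Holstein culture. KLF4 fell in Angus cells at hour 2 (-0.68, SE 0.150, FDR = 0.000135) and in Holstein cells at hour 8 (-0.38, SE 0.136, FDR = 0.0359). The Holstein call at hour 8 was lost with the F test without the block (FDR = 0.0698) and without the CPM filter (FDR = 0.0848). It was also lost without animal 1, 3 or 4 (FDR = 0.137, 0.0938 and 0.298). With the animal as a block it was kept (-0.38, FDR = 1.66e-06), also by the F test with the block (FDR = 0.00371). The interaction at hour 2 was 0.75 (SE 0.197, FDR = 0.0371) and was called in 7 of 16 alternatives. These included the animal as a block (0.74, FDR = 6.64e-08) and the F test with the block (FDR = 0.00814). The interaction was lost with the F test without the block (FDR = 0.177) and without the CPM filter (FDR = 0.124). It was also lost without the 4 libraries with fewer covered bases (FDR = 0.225). Leaving out any one of Angus animals 1 and 4 or the 4 Holstein animals lost it too (FDR from 0.0655 to 0.328).

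The members' calls in the interaction were then counted. At hour 2, 3 of the 8 KLF genes tested were called, where 0.437% of all 20157 rows were, all 3 with the larger value in Holstein cells, as in 0.298% of rows. The count was 1 to 3 when 1 animal was left out and 1, KLF10, without the 4 libraries with fewer covered bases. With the animal as a block KLF3, KLF4, KLF9 and KLF10 were called, and by the F test with the block KLF3, KLF4 and KLF10. The change from 0 h to 2 h in every Holstein animal lay above that in every Angus animal for KLF3, KLF4, KLF9 and KLF10, where 10.0% of rows did not overlap between the breeds in either direction. At hour 8 no KLF gene was called in the interaction by the likelihood-ratio test, the F test or DESeq2, and none of 8 had an unadjusted p under 0.05, where 0.137% of rows were called. The changes at hour 8 did not overlap for KLF4 and KLF10, both with Holstein the lower, where 7.33% of rows did not. The comparisons at 2 h and 8 h share the 0 h samples.

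**Figure D2:**
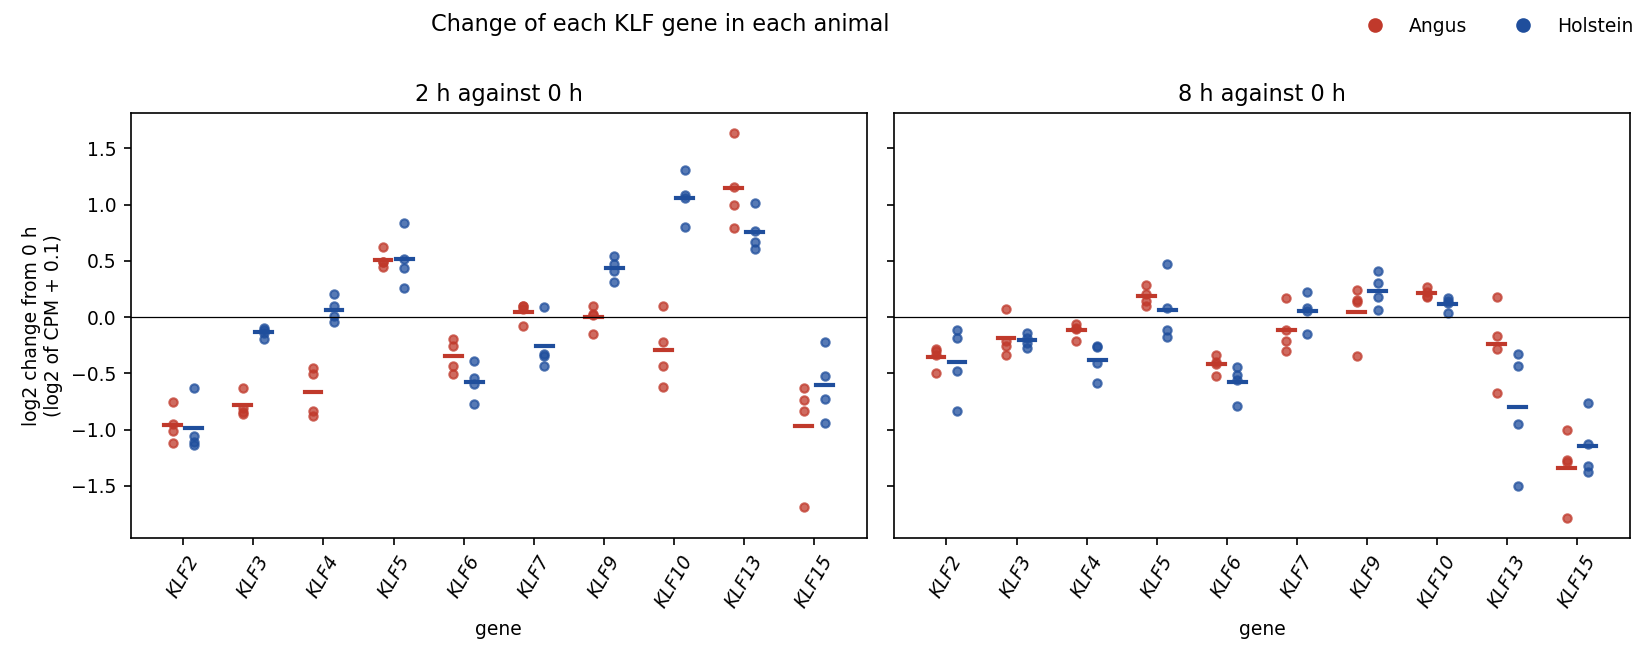
Log2 change from 0 h of each KLF gene in each animal at 2 h (left) and 8 h (right), computed from TMM-scaled CPM plus 0.1 with each culture set against its own 0 h sample. Points are animals (red Angus, blue Holstein) and bars their means. At 2 h the 4 Holstein points of KLF3, KLF4, KLF9 and KLF10 all lie above the 4 Angus points, while those of KLF2, KLF5, KLF6, KLF7, KLF13 and KLF15 overlap.

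With both breeds together, 4 of the 8 KLF genes tested were called at hour 2, where 22% of all rows were. KLF2, KLF3 and KLF6 fell, as did 11.2% of rows, and KLF5 rose, as did 10.8%. At hour 8 only KLF6 of the 8 was called, where 12.8% of rows were. With the animal as a block KLF4 (lower, FDR = 0.0373) and KLF9 (higher, FDR = 0.0487) were added at hour 2. At hour 8, 5 were called with the block, KLF10 as above and KLF2, KLF3, KLF4 and KLF6 in the lower direction.

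KLF2 (lung Krüppel-like factor), which the ERK5 kinase and MEF2 factors induce in endothelium, showed the largest change at hour 2 with both breeds together among the 8 tested. Its row, chromosome 7 from 6615482 to 6647880 on the minus strand, spanned 32399 bases, 13.5 times the gene's length in the RefSeq table for ARS-UCD2.0, and held 211 to 1232 counts. Angus levels were 11.1, 10.1, 9.05 and 11.9 CPM at 0 h, 6.55, 5.17, 4.12 and 5.82 CPM at 2 h and 9.004, 7.96, 7.40 and 8.36 CPM at 8 h. Holstein levels were 7.23, 7.10, 5.95 and 10.4 CPM at 0 h, 3.23, 3.23, 3.81 and 4.97 CPM at 2 h and 6.36, 5.06, 5.49 and 5.79 CPM at 8 h. All 8 cultures were lowest at hour 2 and below their own 0 h level at both hours. Of all rows, 18.3% were lower in all 8 animals at hour 2 and 14% at hour 8. KLF2 fell by 0.99 at hour 2 (SE 0.183, FDR = 1.91e-06), a 1.98-fold lower level, and rose from hour 2 to hour 8 by 0.59 (SE 0.174, FDR = 0.00511). The value at hour 8 against 0 h was -0.40 (SE 0.165, FDR = 0.0918), and with the animal as a block KLF2 fell by 0.39 (FDR = 4.34e-05). The responses of the breeds at hour 2, -1.01 in Holstein and -0.96 in Angus, differed by -0.035 (95% interval -0.60 to 0.53).

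KLF6 (chromosome 13, 44945068 to 44952166, plus strand), a widely expressed factor of wound and stress responses, was the only one of the 8 KLF genes tested that was called against 0 h at both hours with both breeds together and no block. Angus levels were 54.3, 49.7, 46.2 and 48.5 CPM at 0 h, 40.2, 41.7, 32.4 and 42.5 CPM at 2 h and 37.7, 39.2, 35.0 and 36.4 CPM at 8 h. Holstein levels were 52.4, 49.0, 43.2 and 60.6 CPM at 0 h, 34.5, 37.4, 29.7 and 35.4 CPM at 2 h and 36.6, 33.2, 31.7 and 34.9 CPM at 8 h. In both breeds no culture at 2 h or 8 h reached the lowest 0 h level of its breed. KLF6 fell by 0.46 at hour 2 (SE 0.0936, FDR = 1.22e-05) and by 0.51 at hour 8 (SE 0.0788, FDR = 1.39e-08). From hour 2 to hour 8 it differed by -0.041 (95% interval -0.21 to 0.13). Within Angus cells the value at hour 2 narrowly missed the threshold (-0.34, SE 0.128, FDR = 0.0514), and with the animal as a block KLF6 fell by 0.35 (FDR = 7.27e-05). The Angus call at hour 8 (-0.43, SE 0.105, FDR = 0.00316) was lost without animal 1 (FDR = 0.147) or animal 2 (FDR = 0.084).

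KLF5 (chromosome 12, 48104081 to 48123389, plus strand), a growth-associated activator of epithelium and smooth muscle that LPS is known to induce in other cells, moved against KLF2 and KLF6. Angus levels were 6.10, 3.94, 3.52 and 4.46 CPM at 0 h, 8.60, 6.12, 4.98 and 6.12 CPM at 2 h and 6.52, 4.57, 4.32 and 4.94 CPM at 8 h. Holstein levels were 3.68, 4.33, 4.05 and 5.84 CPM at 0 h, 6.67, 6.24, 5.54 and 7.01 CPM at 2 h and 5.15, 4.59, 3.74 and 5.16 CPM at 8 h. Each of the 8 cultures was highest at hour 2, and 17.8% of rows were higher in all 8 at that hour. KLF5 rose by 0.51 at hour 2 (SE 0.146, FDR = 0.00389) and fell from hour 2 to hour 8 by 0.39 (SE 0.133, FDR = 0.0182). The fall was lost without Angus animal 2 (FDR = 0.0552) or Holstein animal 2 (FDR = 0.0531). The value at hour 2 was 0.52 in Angus cells (SE 0.247, FDR = 0.174) and 0.51 in Holstein cells, with an interaction of 0.0024 (95% interval -0.58 to 0.59). Summed markers of contractile smooth muscle, which cultured fibroblasts also express, were 362.3 to 444.5 CPM in Angus cells at hour 2 against 207.6 to 293.0 CPM at 0 h, mostly CNN1, and in Holstein cells 267.3 to 400.0 CPM against 219.6 to 322.0 CPM. Their part in the changes at hour 2 was not tested.

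KLF7 (chromosome 2, 95781394 to 95903310, minus strand), a factor of neuronal and adipose cells, showed no called difference. Its levels were 6.63 to 8.52, 6.96 to 8.61 and 5.70 to 9.05 CPM in Angus cells at 0, 2 and 8 h, and 6.53 to 10.7, 6.94 to 7.94 and 7.64 to 10.2 CPM in Holstein cells. The log2 fold change was -0.12 at hour 2 (95% interval -0.35 to 0.11) and -0.024 at hour 8 (-0.31 to 0.27), and with the animal as a block KLF7 fell by 0.26 in Holstein cells at hour 2 (FDR = 0.0459), which the F test with the block did not call (FDR = 0.0579). Its count is less certain in that the row overlaps MIR2355 and an interval without a gene, and 1 count stood for 166.0 to 195.5 covered bases, compared with 83.6 to 102.1 for the remaining 9 KLF rows. Other rows differed in length from their genes. Those of KLF9, KLF3 and KLF10 spanned 0.25, 0.49 and 0.52 times the gene's length in the RefSeq table for ARS-UCD2.0.

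KLF9 (chromosome 8, 46883356 to 46907760, minus strand), a glucocorticoid- and thyroid hormone-responsive repressor, differed by animal in Angus cells. Angus levels were 3.74, 3.46, 7.17 and 3.43 CPM at 0 h, 3.79, 3.53, 7.70 and 3.07 CPM at 2 h and 4.11, 4.10, 7.97 and 2.67 CPM at 8 h. Angus animal 3 was above every Holstein sample at 0 h and within the Holstein range later, while the other 3 Angus animals were below every Holstein sample of the same hour. Holstein levels were 5.54, 6.34, 4.67 and 5.73 CPM at 0 h, 7.41, 9.30, 5.83 and 7.99 CPM at 2 h and 6.85, 8.43, 5.29 and 5.97 CPM at 8 h. All 4 Holstein cultures were higher at hour 2 than at 0 h, by 0.31 to 0.55 on the log2 scale, against -0.15 to 0.10 in the Angus cultures. KLF9 did not pass the test in Holstein cells at hour 2 (0.45, SE 0.181, FDR = 0.0698), and with the animal as a block it rose by 0.44 (FDR = 1.37e-05). The interaction at hour 2 was 0.44 (SE 0.428, FDR = 1.0) without the block and 0.45 (FDR = 0.0273) with it, and the other 15 of 16 alternatives did not call it. The F test with the block gave an FDR of 0.0533. With both breeds together and the block, KLF9 rose by 0.22 (FDR = 0.0487) and KLF4 fell by 0.30 (FDR = 0.0373) at hour 2, neither of which was called without the block or by the F test with it (FDR = 0.052 and 0.062).

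KLF13 and KLF15 were too low for the filter, which asked for 1 CPM in 50% of the samples compared. KLF15, a glucocorticoid-induced metabolic regulator on chromosome 22, 61283172 to 61292869, plus strand, was tested in no comparison, with 15 to 160 counts per library. Angus levels were 0.725, 0.504, 1.73 and 0.867 CPM at 0 h, 0.364, 0.261, 0.467 and 0.526 CPM at 2 h and 0.242, 0.201, 0.429 and 0.296 CPM at 8 h. Holstein levels were 0.898, 0.659, 0.654 and 0.991 CPM at 0 h, 0.501, 0.429, 0.549 and 0.469 CPM at 2 h and 0.299, 0.348, 0.245 and 0.320 CPM at 8 h. In all 8 animals KLF15 was lower at both hours than at 0 h, and every level lay above 3 counts. In a fit of all rows without the filter KLF15 fell by 0.97 at hour 2 (SE 0.253, FDR = 0.00253) and by 1.56 at hour 8 (SE 0.260, FDR = 4.95e-07), a 2.95-fold lower level.

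KLF13, a partner of SIN3 that takes part in late chemokine transcription in T cells, had a row of only 560 bases on chromosome 21, 28220544 to 28221103, plus strand, against a gene of 37568 bases in the RefSeq table for ARS-UCD2.0. It held 24 to 132 counts. Angus levels were 0.393, 0.344, 0.529 and 0.597 CPM at 0 h, 1.44, 0.784, 1.303 and 1.11 CPM at 2 h and 0.306, 0.402, 0.460 and 0.338 CPM at 8 h. Holstein levels were 0.838, 0.790, 0.654 and 1.15 CPM at 0 h, 1.80, 1.41, 1.04 and 1.87 CPM at 2 h and 0.649, 0.361, 0.457 and 0.340 CPM at 8 h. KLF13 was highest at hour 2 in each of the 8 cultures. It passed the filter, by its 2 h levels, only for Holstein cells at 2 h against 0 h and for the breeds at 2 h, and is not counted among the members called there. In the fit without the filter it rose by 1.04 at hour 2 with both breeds together (SE 0.245, FDR = 0.000653) and fell by 1.69 from hour 2 to hour 8 (SE 0.218, FDR = 3.4e-12).

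The interval of 65723 bases on the 3′ side of the KLF13 row, chromosome 21 from 28221104 to 28286826, carried no gene symbol and held a median of 37.4 times the KLF13 count, 932 to 4831 counts per library. Its levels were 18.3 ± 5.04, 40.5 ± 5.76 and 14.1 ± 1.97 CPM in Angus cells at 0, 2 and 8 h and 28.7 ± 5.60, 61.2 ± 5.60 and 17.5 ± 1.89 CPM in Holstein cells (n = 4). The interval rose by 1.11 at hour 2 (SE 0.198, FDR = 6.65e-07), beside 1.04 for the KLF13 row, and fell by 1.68 from hour 2 to hour 8 (SE 0.151, FDR = 9.37e-25), beside 1.69. Against 0 h it fell by 0.58 at hour 8 (SE 0.180, FDR = 0.0162), beside -0.66 for the KLF13 row (FDR = 0.121), and this call was lost without the 4 libraries with fewer covered bases (FDR = 0.08), without Angus animal 3 (FDR = 0.0562) and without Holstein animal 1 (FDR = 0.0549) or 2 (FDR = 0.0749). It was higher in Holstein than in Angus cells already at 0 h, by 0.65 (SE 0.212, FDR = 0.0218, lost with the F test at FDR = 0.0703, without the 4 libraries with fewer covered bases at FDR = 0.417, and without Angus animal 1, 2 or 4 or Holstein animal 1 or 4 at FDR from 0.0713 to 0.111), and at hour 2 by 0.59 (SE 0.135, FDR = 0.000354). In the RefSeq table for ARS-UCD2.0 the next coding gene on that side is APBA2, with 2 long non-coding RNA genes, a microRNA gene and a pseudogene between. Of these, the long non-coding RNA gene LOC100335190 has its own row, the next with a gene symbol on that side. Whether the counts of the interval come from KLF13 transcripts or from others was not tested.

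**Figure D3:**
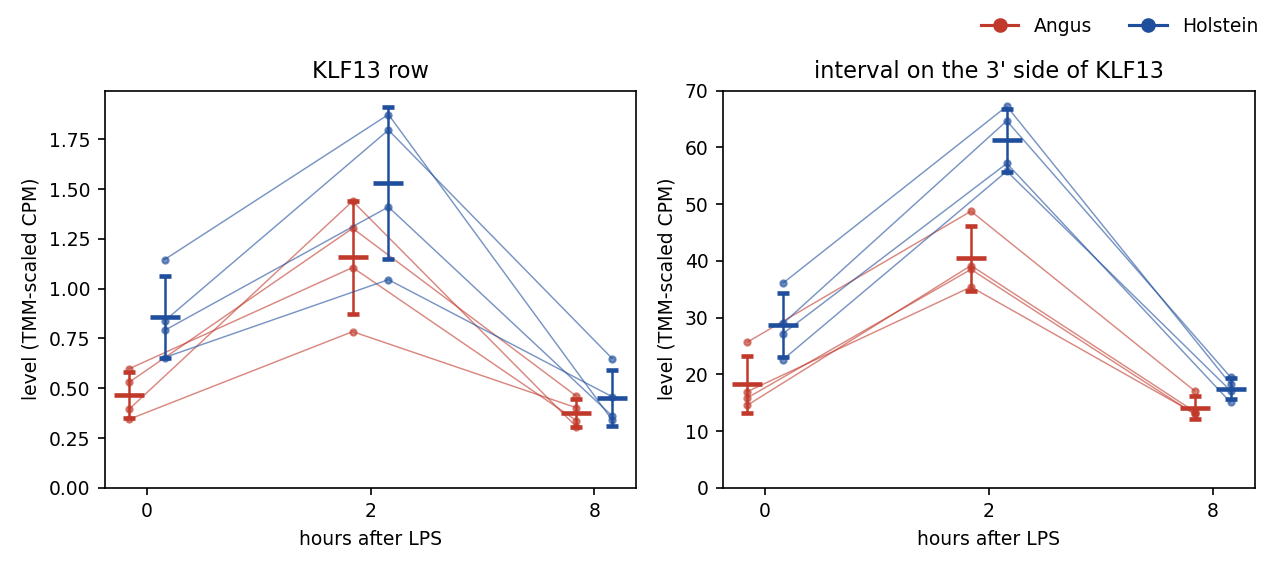
Levels (TMM-scaled CPM, linear axes that start at 0) of the KLF13 row (left) and of the interval without a gene symbol on its 3′ side (right) at 0, 2 and 8 h after LPS. Thin lines join the samples of 1 animal (red Angus, blue Holstein) and bars show mean ± SD of 4 animals. Both are highest at 2 h in all 8 animals, and the interval's means reach 40.5 CPM in Angus and 61.2 CPM in Holstein cells.

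Intervals on the 3′ side of 6 other KLF genes passed the filter. That of KLF6 fell with KLF6, by 0.44 at hour 2 (SE 0.0986, FDR = 0.000101) and 0.40 at hour 8 (SE 0.0856, FDR = 0.000103). That of KLF3 fell in Angus cells at hour 2 by 0.62 (SE 0.145, FDR = 0.000407), against 0.040 in Holstein cells (SE 0.0969, FDR = 0.898), with an interaction of 0.67 (SE 0.162, FDR = 0.0121) that was called in 8 of 15 alternatives. That of KLF9 held 3.22 times the count of the KLF9 row and rose in Holstein cells at hour 2 by 0.53 (SE 0.161, FDR = 0.00786), a call lost without Holstein animal 1 (FDR = 0.172) or 4 (FDR = 0.0672). That of KLF4 did not move with KLF4: it rose at hour 8 by 0.28 (SE 0.0911, FDR = 0.0215) and stood at 0.023 in Angus cells at hour 2 (SE 0.157, FDR = 0.967). Nor did that of KLF5, at 0.091 at hour 2 (SE 0.130, FDR = 0.734) where KLF5 rose, and that of KLF7 was not called in any comparison.

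Within single breeds, 4 of 8 KLF genes, KLF13 apart, were called in Holstein cells at hour 2, where 17.2% of rows were. These were KLF10 and KLF5 (higher) and KLF2 and KLF6 (lower), and KLF2 and KLF10 also exceeded 2-fold, as 3.14% of rows did. The KLF5 call (0.51, SE 0.183, FDR = 0.0356) was lost with the F test without the block (FDR = 0.0535) and without the CPM filter (FDR = 0.0757). It was also lost without Holstein animal 1 (FDR = 0.334), 2 (FDR = 0.184) or 3 (FDR = 0.12). With the animal as a block it was kept (0.52, FDR = 0.000214), also by the F test with the block (FDR = 0.00624). The block added KLF7 (-0.26, FDR = 0.0459) and KLF9 (0.44, FDR = 1.37e-05) in Holstein cells at hour 2. At hour 8, 2 of 8 were called in Holstein cells, KLF4 and KLF6, where 14.7% of rows were. In Angus cells KLF2, KLF3 and KLF4 were called at hour 2, 3 of 8 where 13.8% of rows were, and 6 were called with the animal as a block, which added KLF5 (0.52, FDR = 3.17e-05), KLF6 and KLF10. At hour 8 only KLF6 was called in Angus cells, 1 of 8 where 3.9% of rows were, and 3 with the block, which added KLF2 (-0.37, FDR = 0.00247) and KLF10 (0.21, FDR = 0.0174). In Holstein cells at hour 8 the block gave 5 calls and added KLF2 (-0.41, FDR = 0.0233), KLF3 (-0.21, FDR = 0.00587) and KLF10 (0.12, FDR = 0.0477). At 2-fold no KLF gene passed with both breeds together at hour 2, at hour 8 or from hour 2 to hour 8, where 2.82%, 1.42% and 2.76% of rows did. Nor did any pass in Holstein cells at hour 8 (2.51% of rows), in Angus cells at hour 2 (2.97%) or hour 8 (0.863%), or between breeds at hour 8 (3.24%). From hour 2 to hour 8 with both breeds together, 2 of 8 were called, KLF2 and KLF5 as above, where 23.8% of rows were.

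The next question was whether the breeds differed at a given hour. At 0 h none of 8 KLF genes was called by the likelihood-ratio test, the F test or DESeq2, where 13.8% of rows were, and 1 of 8, KLF2, had an unadjusted p under 0.05 (-0.46, SE 0.197, FDR = 0.103). Without Holstein animal 4 the value of KLF2 was -0.64 (FDR = 0.0068). At hour 2, 3 of 8, KLF13 apart, were called, where 20.1% of rows were, and all 3 were higher in Holstein cells, as were 10.4% of rows: KLF10 by 1.15 (SE 0.143, FDR = 1.3e-12), KLF4 by 0.49 (SE 0.116, FDR = 0.000634) and KLF3 by 0.45 (SE 0.128, FDR = 0.00502). KLF10 was 2.21-fold higher and the only one past 2-fold, which 4.44% of rows were. It was also the only KLF gene past 2-fold in the interaction at hour 2, where 0.278% of rows were. At hour 8, 3 of 8 were called, where 16.5% of rows were, and all 3 were lower in Holstein cells, as were 7.78% of rows: KLF2 by -0.52 (SE 0.143, FDR = 0.00454), KLF4 by -0.51 (SE 0.154, FDR = 0.0112) and KLF10 by -0.30 (SE 0.102, FDR = 0.027). KLF4 and KLF10 thus stood on opposite sides of Angus at the 2 hours. At hour 8 the KLF10 call was lost without the CPM filter (FDR = 0.0746) and without any one of Angus animals 1 and 4 and the 4 Holstein animals (FDR from 0.0606 to 0.123), and the KLF4 call without Angus animal 1 or 4 or Holstein animal 2 or 4 (FDR from 0.0569 to 0.0668).

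KLF9 in the comparison of breeds depended on 1 animal. The log2 difference of Holstein from Angus was 0.32, 0.75 and 0.49 at 0, 2 and 8 h (FDR = 0.475, 0.0683 and 0.311). Without Angus animal 3 it was 0.65, 1.14 and 0.87 (FDR = 0.0033, 2.13e-06 and 0.00314). Without the same animal the interval on the 3′ side of KLF9 differed by 0.56, 1.17 and 0.99 (FDR = 0.0253, 1.43e-05 and 0.000274). Without Angus animal 3, KLF2 was also called at hour 2 (-0.62, FDR = 0.0216) and KLF7 at hour 8 (0.49, FDR = 0.0357), so that 5 KLF genes were called at each of these hours.

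**Figure D4:**
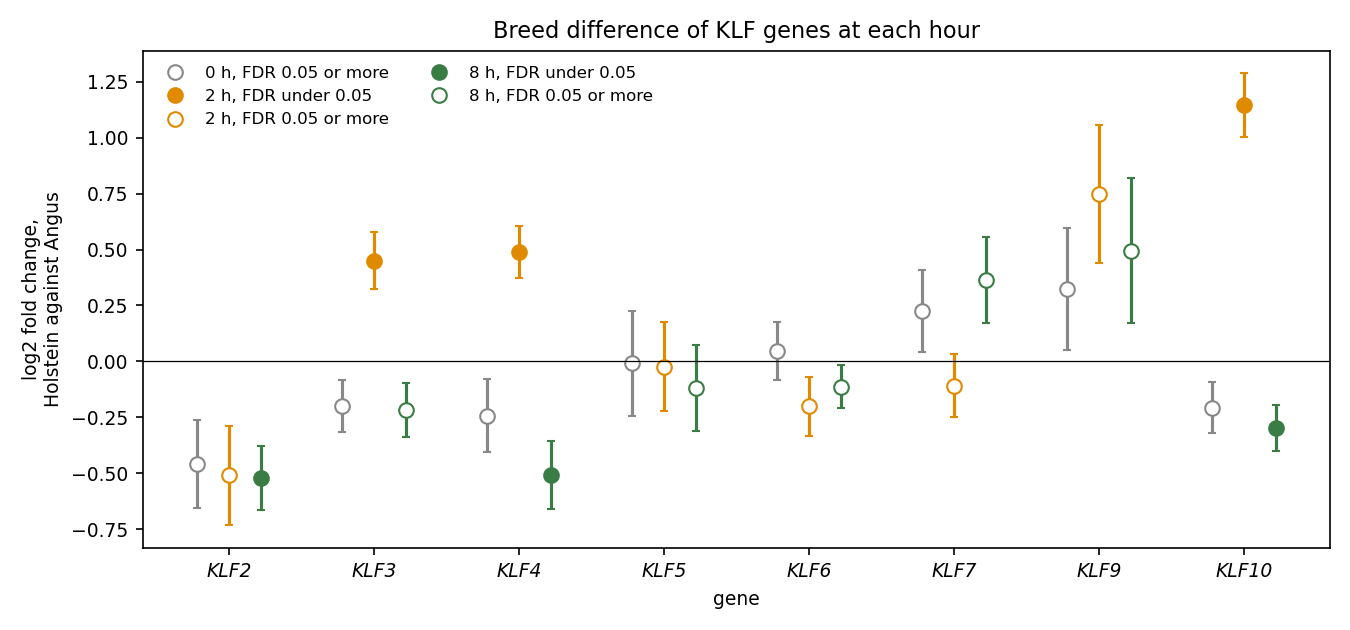
Log2 fold change of Holstein against Angus cells for the 8 KLF genes tested at all 3 hours (grey 0 h, orange 2 h, green 8 h). Points are the fitted values, bars 1 standard error, and filled points have an FDR under 0.05. KLF3, KLF4 and KLF10 are above 0 at 2 h and below 0 at 0 h and 8 h, while KLF2 is below 0 at all 3 hours.

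The breeds' levels did not overlap for KLF3 and KLF13 at 0 h, for KLF3, KLF4 and KLF10 at 2 h and for KLF2, KLF3, KLF4 and KLF10 at 8 h. The corresponding shares of all rows were 17.3%, 24% and 20.4%. KLF13 was the only one of these that was higher in Holstein cells at 0 h (0.84, SE 0.301, FDR = 0.0776 in the fit without the filter). KLF5 and KLF6 overlapped between the breeds at every hour, with breed differences from -0.12 to -0.0092 and from -0.20 to 0.046.

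Other genes of the family and of its pathway were counted with both breeds together, where 22% of all rows were called at hour 2 and 12.8% at hour 8. Of 16 other SP and KLF genes, 9 were tested. At hour 2, 1 rose and 4 fell (median -0.22 beside -0.0039 over all rows), and at hour 8 none rose and 3 fell (median -0.12 beside -0.0072). SP7 (osterix, of bone-forming cells) fell by 1.12 and 1.38 at the 2 hours, KLF11, the closest relative of KLF10, by 0.58 and 0.41, and SP3, a ubiquitous competitor of SP1, by 0.47 at hour 2. KLF16 rose by 0.53 at hour 2, and KLF12, a CtBP-binding repressor like KLF3, fell by 0.50 at hour 8. In Holstein cells at hour 2 KLF11 fell by 0.55 (SE 0.164, FDR = 0.00731) while KLF10 rose. KLF11 was also lower in Angus cells at hour 2, at 6.10 to 7.73 CPM against 10.0 to 12.1 CPM at 0 h, where KLF10 was not called. One of the 5 calls at hour 2 was lost with DESeq2-type size factors, with no change of sign.

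Of the 6 genes of the ERK5-MEF2 pathway, which induces KLF2 and KLF4 in endothelium, MEF2D (0.49, SE 0.175, FDR = 0.0259) and MEF2A (0.43, SE 0.108, FDR = 0.000642) rose at hour 2. MEF2A fell at hour 8 (-0.42, SE 0.107, FDR = 0.00169). The kinase genes MAP2K5 and MAPK7 were not called with both breeds together, at -0.077 and -0.0032 at hour 2. The median of the 6 was -0.040 at hour 2 and -0.37 at hour 8. In the fit of Holstein cells 4 of the 6 fell at hour 8 (median -0.46), where 14.7% of rows were called. None was called in Angus cells (median -0.245), where 3.9% of rows were. In the interaction at hour 8 none of the 6 was called, where 0.137% of rows were. Of these 4 calls, 1 was lost in the fit of rows with a gene symbol only.

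Of 12 genes for co-repressors, acetyltransferases and ubiquitin ligases that bind KLF proteins, 10 had a row and were tested. With both breeds together none rose at either hour, CREBBP fell at hour 2 (-0.23, SE 0.0708, FDR = 0.00786), and KAT2B (-0.30, SE 0.0793, FDR = 0.00239) and CTBP2 (-0.20, SE 0.067, FDR = 0.031) fell at hour 8. The list medians were -0.013 and -0.086, and SIN3A, HDAC1, HDAC2 and CTBP1 were not called at either hour. In Holstein cells alone SIN3A rose at hour 2 (0.27, SE 0.091, FDR = 0.0187) and hour 8 (0.24, SE 0.0871, FDR = 0.0467), SMURF1 rose at hour 2 (0.32, SE 0.0856, FDR = 0.00184) and CTBP1 fell at hour 8 (-0.29, SE 0.109, FDR = 0.0492). Of the list's 3 calls in Holstein cells at hour 8, 1 was lost with DESeq2-type size factors. No gene of the list was called in the interaction at hour 2 or hour 8, where 0.437% and 0.137% of rows were.

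Of 8 genes of the glucocorticoid response, to which KLF9, KLF13 and KLF15 belong, 7 were tested. ERRFI1, a feedback inhibitor of the EGF receptor, rose at hour 2 (2.13, SE 0.257, FDR = 1.55e-13), while SGK1 (-0.92, SE 0.270, FDR = 0.00506) and TSC22D3 (-0.77, SE 0.123, FDR = 1.73e-08) fell. At hour 8 DUSP1 (-0.50, SE 0.146, FDR = 0.00825) and PER1 (-0.40, SE 0.121, FDR = 0.0124) fell and none rose with both breeds together, while ERRFI1 rose in Holstein cells alone (0.92, SE 0.272, FDR = 0.00839). In the interaction none of the 7 was called at hour 2 or hour 8, where 0.437% and 0.137% of rows were. The receptor gene NR3C1 was not called, at -0.097 and 0.11, and the list medians were -0.097 and -0.21.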

How the data were processed

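Polyadenylated RNA of 24 cultures was sequenced. The authors demultiplexed with CASAVA 1.7, aligned reads with NextGENe 2.3.4 to the bovine build UMD v3.1, and deposited 1 table per sample. Its read counts are whole-number counts per row, deposited without normalization, for 59846 rows that are gene spans (introns included) or intervals without a gene symbol. The latter held 12.28% to 20.53% of counts and were kept in library sizes and tests, as they carry reads of the samples. The mean coverage (signal) of each row, also deposited by the authors, was used only to check how reads were counted. Whether strand was used in counting is not given in the sources used here. Genes whose rows overlap are less certain.

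Groups and animal numbers came from the sample labels. Each of 12 comparisons was fitted on its own samples with edgeR 4.0.16 in R 4.3.3 (likelihood-ratio test, TMM scaling, rows with CPM of at least 1 in 50% of samples, Benjamini-Hochberg adjustment over all rows tested). Genes were called at FDR under 0.05, with a separate count at 2-fold. Standard errors came from the information matrix. No 2 samples of a group were alike within counting error (36 pairs). The animal numbers pair samples within a breed, because they name the same animal: deviations from the group means correlated by 0.538 to 0.751 between 0 h and a later hour of 1 animal, and by -0.21 or less on average between different animals. Alternatives were the F test, DESeq2 1.42.0, its size factors, no CPM filter, the animal as a block, leaving out each animal, leaving out the 4 libraries named above, the 2-fold limit and, chosen after seeing the data, rows with a gene symbol only and the F test with the block. Leaving out the 4 libraries removed those among them that a comparison held. The procedures were tested on simulated data.

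The 10 genes and the gene lists were chosen with earlier results of these data known. All 10 genes were named in every comparison, and of each list up to 4 called genes with the largest change. No sequences were used here, and RefSeq names and neighbours are of ARS-UCD2.0.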

Additional observations from a re-analysis of the deposited data

Results flagged for a closer look

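KLF9 in Angus animal 3 stood apart from the other 3 Angus animals at 0 h (7.17 CPM against 3.43 to 3.74) and at 2 h (7.70 CPM against 3.07 to 3.79). Both gaps exceeded Dixon's 95% critical value for 4 samples, being 0.917 and 0.845 of the group range. Chance marks about 1 in 20 groups, and 60 groups were examined. The 2 h library of this animal is 1 of the 4 with fewer covered bases per COL1A1 count, whereas its 0 h library is not.

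The response to LPS at hour 2 differed between the breeds for KLF10 (interaction 1.37, SE 0.171, FDR = 1.49e-11), KLF4 (0.75, SE 0.197, FDR = 0.0371) and KLF3 (0.67, SE 0.149, FDR = 0.00399). Of 16 alternatives, 16 called KLF10, 7 called KLF4 and 13 called KLF3. For each the change of every Holstein animal lay above that of every Angus animal, where 10.0% of rows did not overlap between the breeds in either direction.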

How the results depend on the processing

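No called direction of a KLF gene reversed in any alternative. At the 2-fold limit the number of KLF genes called was 0 with both breeds at 2 h, 8 h and 8 h against 2 h, 2 in Holstein cells at 2 h, 0 at 8 h, 0 in Angus cells at either hour, 1 between breeds at 2 h, 0 at 8 h, and 1 in the interaction at 2 h. Without the CPM filter 2 were called at 8 h with both breeds and 2 in Angus cells, KLF15 being added. DESeq2 gave 2 in Angus cells at 8 h, and the F test 1 in Holstein cells at 8 h. Under a replicate block for the animal, 5 were called with both breeds at 8 h, 5 in Holstein cells at 8 h, 6 in Angus cells at 2 h and 3 at 8 h, and the F test with the block gave 5, 5, 5 and 3. At 2 h the replicate block added KLF4 and KLF9 with both breeds and KLF7 and KLF9 in Holstein cells. Between breeds the same number does not mark a shared animal (mean correlation -0.11, -0.08 and -0.089 at the 3 hours), and the block took away the KLF10 call at 8 h (FDR = 0.0795). Without the 4 libraries with fewer covered bases per COL1A1 count 1, KLF10, was called in the interaction at 2 h. Between breeds at 2 h, 5 were called. Only the library of Angus animal 3 was left out there, so this is the same fit as that without Angus animal 3. There was no such library at 8 h, so that comparison between breeds was not refitted. The counts in Holstein cells and between breeds at 2 h include KLF13 among those tested. Leaving out 1 animal gave 4 to 5 calls with both breeds at 2 h, 1 at 8 h and 1 to 2 for 8 h against 2 h. It gave 3 to 5 and 1 to 2 in Holstein cells, 3 to 4 and 0 to 1 in Angus cells, 0 to 1, 3 to 5 and 1 to 5 between breeds at 0, 2 and 8 h, and 1 to 3 and 0 in the interactions. DESeq2 size factors and rows with a gene symbol only kept every count within 1.5 times. Depth limits KLF13 and KLF15 most, with medians of 55 and 37 counts per library.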

Other observations

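Likeness of pattern was computed for KLF10, chosen after its values were seen. Of the 20245 rows that passed the filter, those with a gene symbol and outside the 10 KLF genes were ranked. Over the 24 samples, which share animals and libraries, the 3 with the highest Pearson r to KLF10 on the log2(CPM + 1) scale were IER2 (0.844), CSRNP1 (0.807) and MIDN (0.796). IER2 and CSRNP1 are known as immediate early genes. Among the KLF genes themselves the highest r was that of KLF3 and KLF4 (0.799), followed by that of KLF2 and KLF6 (0.705), and the lowest that of KLF2 and KLF9 (-0.54).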
